A study of Mus musculus with 6 samples.

Results

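Genes of intracellular calcium storage and release, 10 in all, were followed across sorted mouse islet cells: the SERCA pumps Atp2a2 and Atp2a3, the IP3 receptors Itpr1, Itpr2 and Itpr3, the ryanodine receptors Ryr2 and Ryr3, and Stim1, Stim2 and Orai1 of store-operated entry. They were chosen by symbol for their function, with earlier results of these data known. All 10 members are among the 46932 gene symbols used from the table. The unit is RPKM, which divides a gene's reads by its length in kilobases and by the library's reads in M, in 6 polyadenylated RNA libraries, 2 for each of 3 populations sorted by flow cytometry from adult islets. All animals carried mIns1-H2b-mCherry, a nuclear red reporter under an Ins1 promoter, together with Sst-cre and a floxed YFP allele, which marks cells in which the somatostatin promoter has been active, and their descendants. Beta cells were sorted as mCherry-positive, delta cells as YFP-positive, and the transdifferentiated cells (DP) carried both labels. Each library comes from a pool of 10 to 12 animals of 1 sex. Replicate 1 of a group is male and replicate 2 female, so the spread within a group includes the sexes. No treatment was given. After an overnight culture in 5.5 mM glucose the islets were dissociated, and the sorts rest on promoter activity rather than on a count of hormone-positive cells.

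Background on the pathway comes from general knowledge. SERCA pumps use ATP to load calcium into the endoplasmic reticulum (ER). Receptors coupled to Gq activate phospholipase C, which makes IP3, and IP3 opens IP3 receptors in the ER membrane, while ryanodine receptors open in response to calcium itself. When the store empties, STIM proteins sense the loss in the ER lumen and open Orai channels in the plasma membrane. In islet endocrine cells these steps shape the calcium signals that drive hormone release.

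The deposited values correspond to denominators of 10.9 to 21.6 M reads per library, recovered from the whole-read steps of low values. The sorts carried their defining transcripts: mean Ins2 in delta cells was 0.604% of its beta level and mean Sst in beta cells 0.146% of its delta level, and transdifferentiated cells held 34.2% of the beta level of Ins2 and 23.8% of the delta level of Sst. RNA of other cell types was present. The 12 acinar markers summed, male pool first, to 9244 and 385 RPKM in beta, 2478 and 170 RPKM in transdifferentiated and 797 and 578 RPKM in delta cells. Alpha markers (7 genes) summed to 518 to 672 RPKM in beta, 1898 to 2657 RPKM in transdifferentiated and 15367 to 16751 RPKM in delta libraries, none of them at 0. The 2 PP-cell markers summed to 558 to 802 RPKM, 11877 to 12041 RPKM and 36498 to 37076 RPKM in the same order, none at 0. The median log2 difference over the 13022 tested genes was 0.32 for transdifferentiated minus beta, -0.03 for transdifferentiated minus delta and -0.36 for beta minus delta. After median-of-ratios scaling, which divides each library by its typical ratio to the mean library, these medians were -0.08, -0.02 and 0.04. In RNA from a sorted bulk sample, fewer cells that express a gene and less RNA in each cell cannot be told apart.

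The SERCA genes were the most abundant members and were highest in beta cells, intermediate in transdifferentiated cells and lowest in delta cells. Atp2a2 (chromosome 5, 122453513 to 122502225, minus strand, GRCm38), the pump found in most cell types, was at 288 and 424 RPKM in the male and female beta libraries, 223 and 226 RPKM in transdifferentiated cells and 116 and 119 RPKM in the delta libraries. No library of a group overlapped with those of another. Atp2a3 (chromosome 11, 72961169 to 72993044, plus strand), a pump of lower calcium affinity known from beta cells and blood cells, was at 189 and 244 RPKM in beta, 120 and 135 RPKM in transdifferentiated and 75.4 and 82.8 RPKM in delta cells, again with no overlap. Mean Atp2a2 in delta cells was 33.0% and mean Atp2a3 36.5% of the beta level.

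On the log2(RPKM + 1) scale, beta minus delta was 1.57 for Atp2a2 (standard error, SE, 0.18, limma adjusted p = 5.53e-04) and 1.43 for Atp2a3 (SE 0.15, adjusted p = 3.82e-04). Transdifferentiated cells were lower than beta cells by 0.64 for Atp2a2 (-0.64, SE 0.18, adjusted p = 0.024) and by 0.75 for Atp2a3 (-0.75, SE 0.15, adjusted p = 0.0065), and after scaling these differences were -1.11 and -1.23. They were higher than delta cells by 0.93 (adjusted p = 0.020) and 0.68 (adjusted p = 0.031). The Atp2a2 difference from beta cells missed the threshold without transdifferentiated replicate 1 or 2 (adjusted p = 0.098 and 0.084) and with no filter on low values (adjusted p = 0.076). Against delta cells both calls were lost with no filter (adjusted p = 0.082 for Atp2a2 and 0.093 for Atp2a3) and without any 1 transdifferentiated or delta library (adjusted p between 0.092 and 0.17).

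The make-up of the SERCA pool changed far less than its size. Atp2a2 made up 60.3% and 63.4% of the summed SERCA RPKM in the beta libraries, 65.0% and 62.6% in the transdifferentiated libraries and 60.6% and 59.0% in the delta libraries, while the sum itself ran from 191 RPKM in the male delta library to 668 RPKM in the female beta library. A share within a library does not move with library scaling. Atp2a1, the skeletal muscle pump, was at 0.185 RPKM or less in every library, which is 2 to 7 reads.

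**Figure D1:**
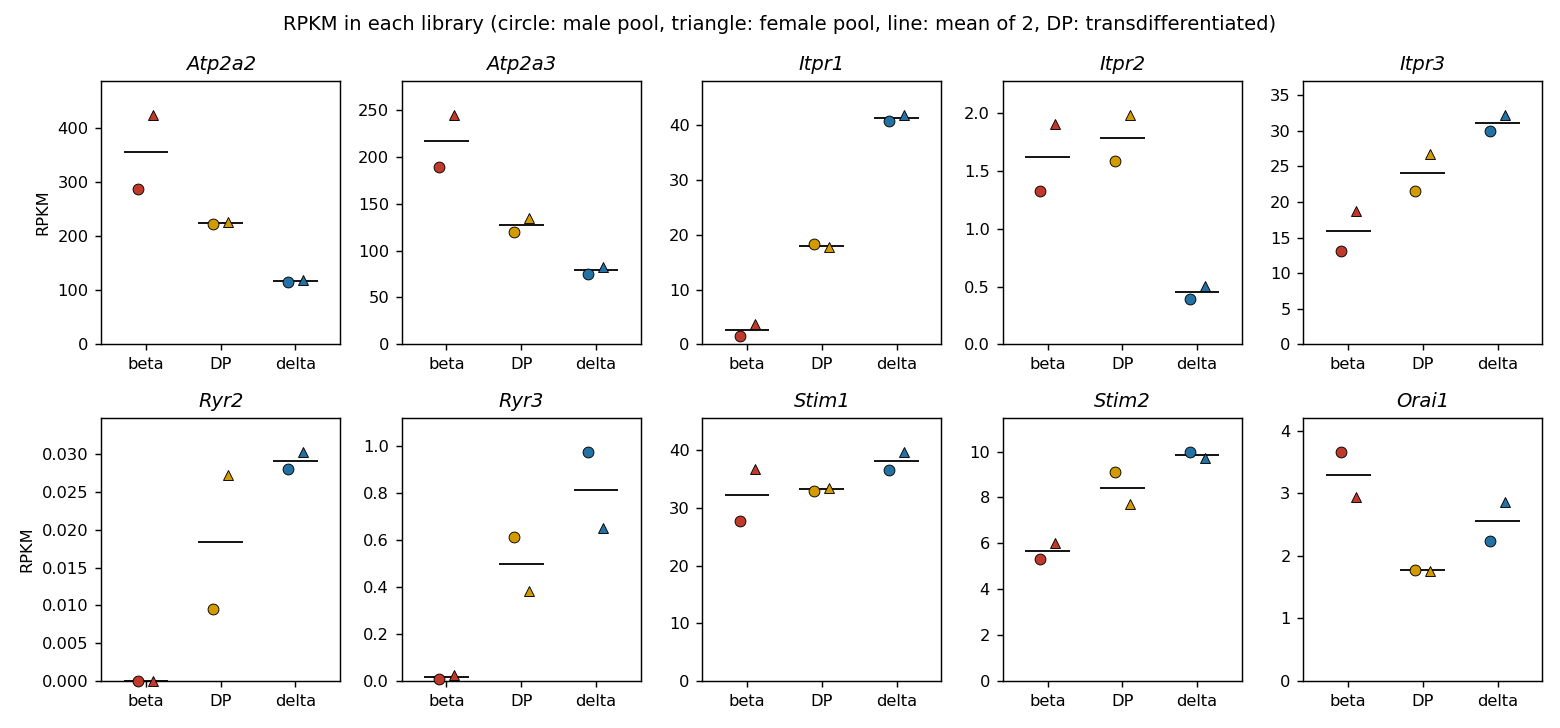
RPKM (vertical axis, linear, from 0) of each of the 10 genes in beta, transdifferentiated (DP) and delta libraries; circles are male pools, triangles female pools and lines the mean of the 2 libraries. Atp2a2 and Atp2a3 step down from beta to DP to delta, Itpr1 and Ryr3 step up, Itpr2 is lowest in delta libraries (0.394 and 0.504 RPKM), and Orai1 is lowest in DP libraries (1.77 and 1.76 RPKM).

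The 3 IP3 receptors went in different directions. Itpr1 (chromosome 6, 108213096 to 108551109, plus strand), the receptor best known from neurons, was at 1.5 and 3.65 RPKM in the male and female beta libraries, 18.3 and 17.7 RPKM in transdifferentiated cells and 40.8 and 41.8 RPKM in the delta libraries. On the deposited values it was 27.1 times higher in delta than in beta cells in the male pool and 11.5 times in the female pool. This was the largest log2 difference of any tested member (-3.63 for beta minus delta, SE 0.26, limma adjusted p = 9.22e-05). After scaling, beta minus delta was smaller, at -3.25, and transdifferentiated minus beta was 2.10. Transdifferentiated cells were higher than beta cells by 2.48 (SE 0.26, adjusted p = 6.82e-04) and lower than delta cells (-1.16, SE 0.26, adjusted p = 0.034). The last call was lost with a pseudocount of 0.1 RPKM (adjusted p = 0.092), with no filter (0.12) and without any 1 transdifferentiated or delta library (between 0.12 and 0.16). Their mean Itpr1 was 43.5% of the delta level, where their Ppy was 34.9%, their Sst 23.8% and their Gcg 13.1%. In beta libraries Itpr1 was at 6.23% of the delta level, Ppy at 2.62%, Gcg at 2.16% and Sst at 0.146%. Alpha and PP markers have the same order of groups, as given above, and the part of alpha-cell and PP-cell RNA in the Itpr1 differences was not tested.

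Itpr2 (chromosome 6, 146108299 to 146502223, minus strand), a receptor of high IP3 affinity that is abundant in acinar cells and hepatocytes, was scarce throughout. It was at 1.33 and 1.91 RPKM in beta, 1.58 and 1.98 RPKM in transdifferentiated and 0.394 and 0.504 RPKM in delta cells. The beta and transdifferentiated libraries overlapped, with a difference of 0.09 (95% interval -0.29 to 0.48, adjusted p = 0.65), and both groups lay above both delta libraries. Beta minus delta was 0.85 (SE 0.16, limma adjusted p = 0.0046) and transdifferentiated minus delta 0.94 (SE 0.16, adjusted p = 0.013). The second call was lost with no filter (adjusted p = 0.054) and without transdifferentiated replicate 2, delta replicate 1 or delta replicate 2 (between 0.062 and 0.075). Itpr2 was under 1 RPKM in both delta libraries and passed the filter through the other groups. With a pseudocount of 0.1 RPKM, which damps low values less, both differences were larger, at 1.63 and 1.78.

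Itpr3 (chromosome 17, 27057304 to 27122223, plus strand), the receptor of lowest IP3 affinity and known from secretory epithelia, was at 13.1 and 18.7 RPKM in beta, 21.5 and 26.7 RPKM in transdifferentiated and 30.0 and 32.2 RPKM in delta cells. Beta cells were lower than delta cells (-0.94, SE 0.18, limma adjusted p = 0.0049) and lower than transdifferentiated cells, by 0.58 (adjusted p = 0.036). After scaling the first was -0.49 (adjusted p = 0.045). The second was 0.13 (adjusted p = 0.53) after scaling and missed the threshold without beta replicate 1, either transdifferentiated library or either delta library (adjusted p between 0.053 and 0.17). Transdifferentiated minus delta was -0.36 (95% interval -0.80 to 0.08, adjusted p = 0.27). The part of acinar RNA in the Itpr2 and Itpr3 values was not tested. Itpr3 has the order of groups of the alpha and PP markers, as do Ryr3 and Stim2 below. The part of alpha-cell and PP-cell RNA in the values of these genes was not tested.

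Summed over the 3 receptors, IP3 receptor RNA was at 16.0 and 24.2 RPKM in beta, 41.3 and 46.4 RPKM in transdifferentiated and 71.2 and 74.5 RPKM in delta cells, the reverse of the SERCA order. Its make-up differed as well. Itpr3 carried 82.2% and 77.1% of it in the beta libraries, 52.0% and 57.6% in the transdifferentiated libraries and 42.2% and 43.2% in the delta libraries. Itpr1 carried 9.42% and 15.0%, then 44.1% and 38.1%, then 57.3% and 56.1%. Itpr2 carried 8.34% and 7.86% in beta, 3.83% and 4.27% in transdifferentiated and 0.554% and 0.676% in delta libraries. For each receptor the groups did not overlap. The shares were not tested.

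**Figure D2:**
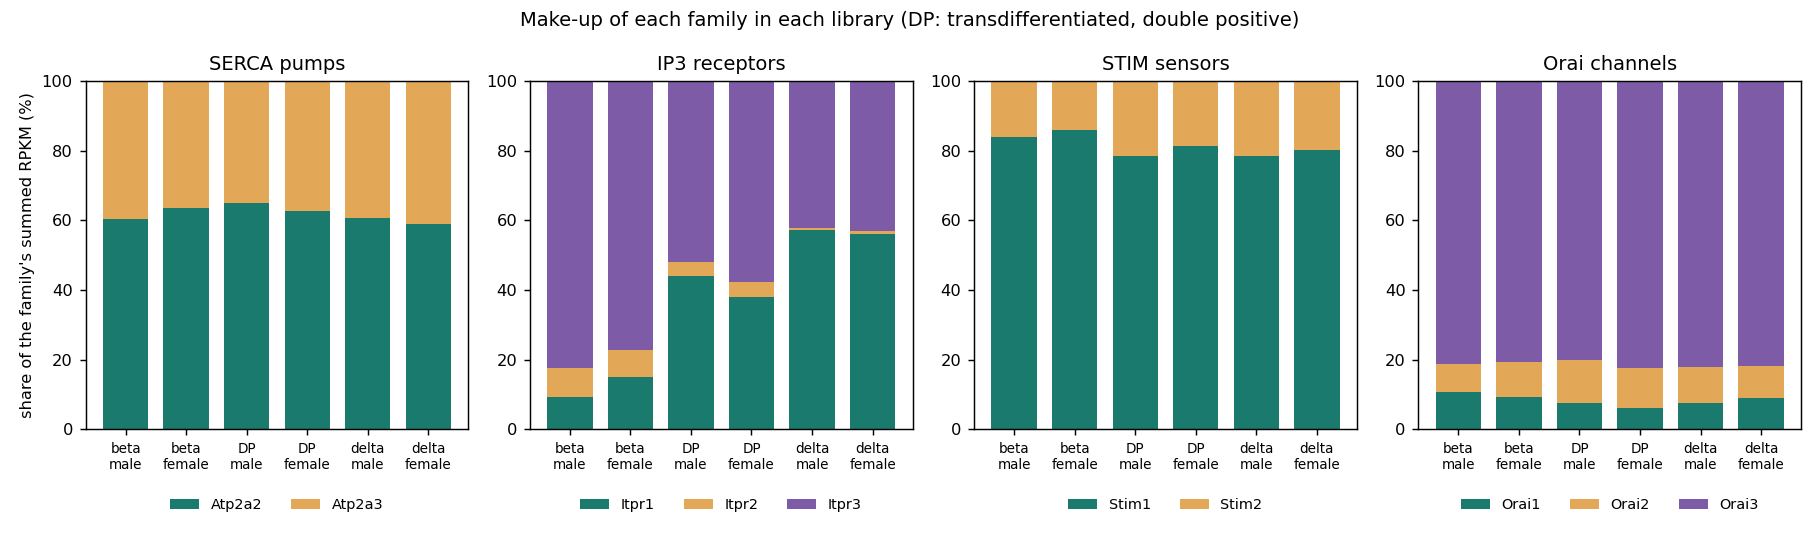
Share (%) of a family's summed RPKM carried by each gene in each of the 6 libraries (DP, transdifferentiated), for SERCA pumps, IP3 receptors, STIM sensors and Orai channels. Itpr1 rises from 9.42% and 15.0% of IP3 receptor RNA in beta to 57.3% and 56.1% in delta libraries, while the SERCA split stays between 59.0% and 65.0% Atp2a2.

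Promoter windows from RefSeq (GRCm38.p6) were matched for 7 of the 10 members, all but Atp2a2, Itpr1 and Ryr3. The windows of 3 are printed because their genes moved in opposite directions between beta and delta cells: Atp2a3 and Itpr2 were higher in beta cells and Itpr3 lower. Each line gives the 250 bases before the annotated start, 5′ to 3′ on the gene's strand, with GC boxes (GGGCGG on either strand, overlapping matches included) in capitals. The windows are chr11:72960919-72961168 (plus), chr6:146502224-146502473 (minus) and chr17:27057054-27057303 (plus).
Atp2a3: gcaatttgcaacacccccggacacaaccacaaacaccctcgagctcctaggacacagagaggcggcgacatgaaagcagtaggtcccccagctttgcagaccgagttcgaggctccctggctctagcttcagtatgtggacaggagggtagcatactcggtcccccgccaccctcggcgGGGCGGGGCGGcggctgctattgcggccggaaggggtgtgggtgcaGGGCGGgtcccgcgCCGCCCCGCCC
Itpr2: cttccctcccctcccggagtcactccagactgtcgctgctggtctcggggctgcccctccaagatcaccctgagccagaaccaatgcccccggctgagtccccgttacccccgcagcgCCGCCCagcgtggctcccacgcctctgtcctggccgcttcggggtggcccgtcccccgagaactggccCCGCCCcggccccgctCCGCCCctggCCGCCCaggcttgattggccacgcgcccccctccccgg
Itpr3: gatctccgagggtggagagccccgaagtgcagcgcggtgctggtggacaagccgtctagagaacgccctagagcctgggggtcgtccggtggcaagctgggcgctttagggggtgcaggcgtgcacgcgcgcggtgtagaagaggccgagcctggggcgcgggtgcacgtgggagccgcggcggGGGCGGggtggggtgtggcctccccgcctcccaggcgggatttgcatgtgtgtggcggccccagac
The Atp2a3 window holds 5 GC box matches, that of Itpr2 holds 4 and that of Itpr3 holds 1, and 33% of 32536 windows of this length hold at least 1. An E box (CANNTG), the kind of sequence that many endocrine basic helix-loop-helix factors read, has 0 matches in the Atp2a3 and Itpr2 windows and 2 in that of Itpr3, against 66.2% of all windows with at least 1. GC content was 66.8%, 74.4% and 72% in the order printed, with a median of 52.4% over all windows. The window of Stim2, which was also called lower in beta cells on the deposited values, is not printed. It holds 3 GC box matches and 0 E box matches, so the matches do not divide by direction. These matches describe the letters of the windows only.

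Ryanodine receptor RNA was near the detection limit in beta cells. Ryr3 (chromosome 2, 112631355 to 113217096, minus strand), the channel first known from brain, was at 0.00787 and 0.0249 RPKM in the male and female beta libraries, 0.614 and 0.384 RPKM in transdifferentiated cells and 0.973 and 0.649 RPKM in the delta libraries. With a gene length of 17694 bases, found as the length that makes all 6 values whole to within 0.0201 read, they correspond to 3 and 9 reads in beta, 136 and 74 reads in transdifferentiated and 292 and 180 reads in delta libraries. With the GENCODE exon length of 18977 bases they would be 3.22 and 9.66, 146 and 79.3, and 313 and 193 reads. Groups did not overlap, and the delta to beta ratio was 124 in the male pool (exact 95% counting interval 41.9 to 604) and 26.1 in the female pool (13.5 to 58.0). Intervals of this kind cover counting error only.

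Ryr3 stayed under the filter of 1 RPKM in 2 libraries, so it was not tested with the other members. With no filter, beta minus delta was -0.83 (SE 0.13, limma adjusted p = 0.0097) and transdifferentiated minus beta 0.56 (SE 0.13, adjusted p = 0.034), on a scale where the pseudocount of 1 RPKM damps such low values. With a pseudocount of 0.1 RPKM as well, chosen after the data were seen, they were -2.95 (adjusted p = 0.0043) and 2.34 (adjusted p = 0.011). Transdifferentiated minus delta was -0.27 (adjusted p = 0.34) with no filter. The gene Aven lies on the other strand and shares 916 bases of exon with Ryr3, and the sources used here do not say whether strand was counted. Aven was between 2.09 and 2.75 RPKM in the 6 libraries, and its part in the Ryr3 values was not tested.

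Ryr2 (chromosome 13, 11553102 to 12106945, minus strand), the heart channel, was listed at 0 in both beta libraries, at 0.00947 and 0.0272 RPKM in transdifferentiated and at 0.0280 and 0.0303 RPKM in delta libraries. With the GENCODE exon length these would be 3.41 and 8.54 reads in transdifferentiated and 13.7 and 13.7 reads in delta libraries. These are not whole reads, so the length behind the deposited values differs and the true counts are not known. On the GENCODE length 3 reads, the limit that a count of 0 allows, are worth 0.00483 and 0.00510 RPKM in the beta libraries. That limit moves with the length and is not exact either. With no filter its beta minus delta difference had an adjusted p of 0.31 by limma. Ryr1, the skeletal muscle channel, did not reach 3 reads in any library.

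The STIM sensors differed less. Stim1 (chromosome 7, 102267806 to 102437319, plus strand), the main sensor of store depletion, was at 27.7 and 36.9 RPKM in beta, 33.0 and 33.5 RPKM in transdifferentiated and 36.6 and 39.7 RPKM in delta cells. The beta range spans both transdifferentiated libraries and overlaps the delta range. The log2 differences were -0.25 for beta minus delta (95% interval -0.60 to 0.11, limma adjusted p = 0.20), 0.06 for transdifferentiated minus beta (-0.30 to 0.41, adjusted p = 0.77) and -0.19 for transdifferentiated minus delta (-0.55 to 0.16, adjusted p = 0.48). The first 2 change sign after scaling, to 0.22 (adjusted p = 0.18) and -0.41 (adjusted p = 0.035). Without beta replicate 2, beta minus delta was -0.45 (adjusted p = 0.012).

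Stim2 (chromosome 5, 53998499 to 54121057, plus strand), which responds to smaller falls of store calcium, was at 5.33 and 6.01 RPKM in beta, 9.09 and 7.72 RPKM in transdifferentiated and 9.98 and 9.73 RPKM in delta cells. Beta cells were lowest with no overlap: beta minus delta was -0.70 (SE 0.12, limma adjusted p = 0.0031) and transdifferentiated minus beta 0.49 (SE 0.12, adjusted p = 0.015). Both differences shrank after scaling, to -0.28 (adjusted p = 0.054) and 0.08 (adjusted p = 0.54), and leaving out transdifferentiated replicate 1 took the second to an adjusted p of 0.10. Within the STIM pair, where scaling cannot act, Stim2 carried 16.1% and 14.02% of the RNA in beta, 21.6% and 18.7% in transdifferentiated and 21.4% and 19.7% in delta libraries.

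Orai1 (chromosome 5, 123015074 to 123030456, plus strand), the pore of the classical store-operated channel, was the 1 tested member with its lowest values in transdifferentiated cells under both scalings. It was at 3.66 and 2.94 RPKM in beta, 1.77 and 1.76 RPKM in transdifferentiated and 2.23 and 2.86 RPKM in delta libraries. Both transdifferentiated libraries lay under all 4 others. Transdifferentiated minus beta was -0.63 (SE 0.15, limma adjusted p = 0.012) and -0.98 after scaling, and transdifferentiated minus delta was -0.35 (95% interval -0.71 to -0.0023, adjusted p = 0.19), which did not pass. The difference from beta cells just missed the threshold without beta replicate 1 or either transdifferentiated library (adjusted p between 0.051 and 0.056). Beta minus delta was 0.28 (adjusted p = 0.15) and 0.64 after scaling (adjusted p = 0.015). The 10 immune markers fixed as a list have the same order of groups, summed to 153 and 171 RPKM in beta, 47.7 and 54.3 RPKM in transdifferentiated and 76.5 and 90.7 RPKM in delta libraries. Between 1 and 4 of the 10 were at 0 in a library, Cd3e in all of them, and the part of immune RNA in the Orai1 values was not tested.

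Orai1 was the smaller part of the Orai RNA. Orai3, a family member that can form channels with Orai1, was at 27.7 and 25.8 RPKM in beta, 18.9 and 23.4 RPKM in transdifferentiated and 24.4 and 26.2 RPKM in delta cells, between 80.0% and 82.3% of the family's RPKM in each library. Its transdifferentiated minus beta difference was -0.33 (SE 0.13, limma adjusted p = 0.077), and -0.79 after scaling (adjusted p = 0.0061). Orai2 was between 2.69 and 3.30 RPKM in all libraries.

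**Figure D3:**
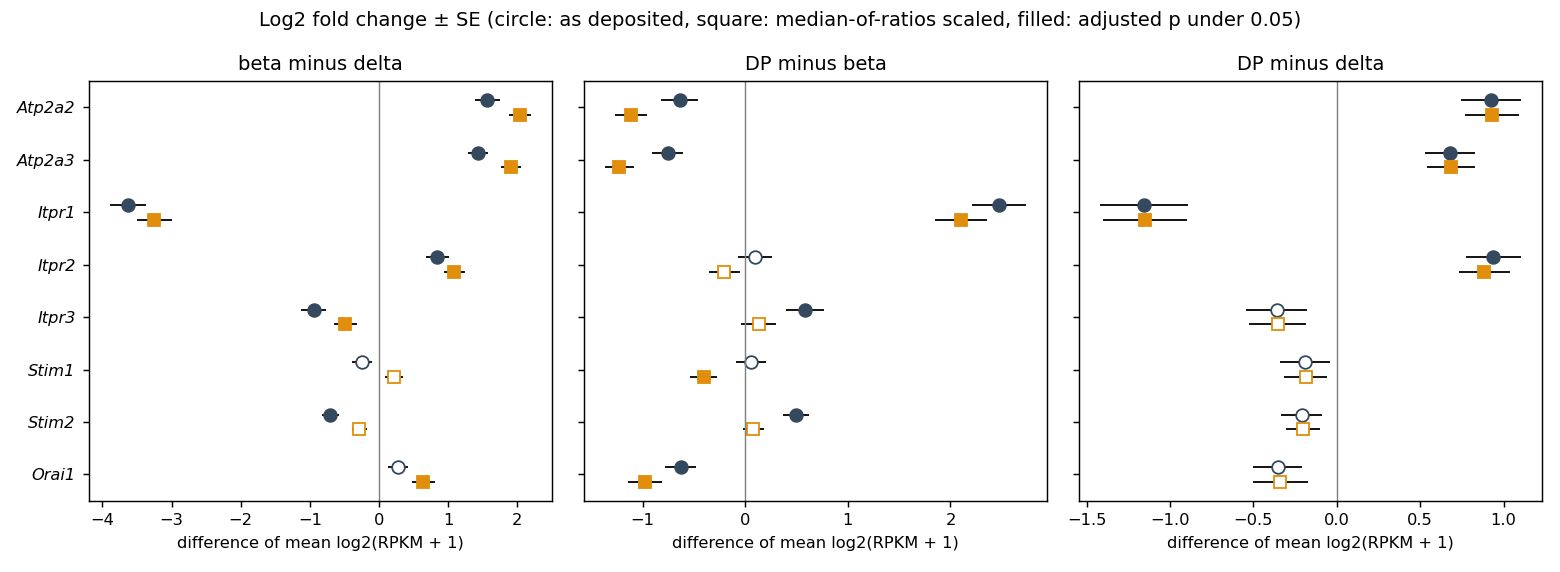
Difference of group means on the log2(RPKM + 1) scale (horizontal axis) with its SE for the 8 members past the filter, in beta minus delta, transdifferentiated (DP) minus beta and DP minus delta. Circles use RPKM as deposited and squares RPKM after median-of-ratios scaling, filled where the adjusted p is under 0.05. Itpr1 and the SERCA genes are filled on both scales in all 3 panels, Stim2 is filled as deposited but not after scaling in the first 2 panels, and Stim1 changes sign with scaling in the first 2 panels.

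Counts here are over the 8 members that passed the filter. Of these only Itpr2 was under 1 RPKM in any library, in both delta libraries, and it passed through the other groups. Between beta and delta cells 6 of 8 were called, 3 higher and 3 lower, where 57.9% of all tested genes were called (11.7% higher, 46.3% lower), and 7 of 8 had groups that did not overlap, against 80.9% of all tested genes. All 6 calls held without any 1 library, and 5 held after scaling. On the scaled values 4 members were higher and 2 lower, where 58.3% of all genes were called, 30.6% higher and 27.7% lower. Between transdifferentiated and beta cells 6 of 8 were called, 3 higher and 3 lower, against 51% of all genes (42.5% higher, 8.46% lower), and the groups of 6 did not overlap, against 76%. Only Atp2a3 and Itpr1 held that call without any 1 library. After scaling 1 was higher and 4 were lower, against 55.4% of all genes, 25.1% higher and 30.3% lower. Between transdifferentiated and delta cells 4 of 8 were called, 3 higher (Atp2a2, Atp2a3, Itpr2) and 1 lower (Itpr1), against 12.7% of all genes (5.53% higher, 7.2% lower), and the groups of all 8 did not overlap, against 63.4%. After scaling the same 4 were called, against 12.4% of all genes (5.68% higher, 6.67% lower). None of these 4 held without any 1 library: 0 were called without transdifferentiated replicate 2, delta replicate 1 or delta replicate 2 (4, 5 and 4 at an unadjusted limma p under 0.05), and Itpr2 alone without transdifferentiated replicate 1. The comparisons share libraries, so they are not independent of each other. Because the members were chosen with earlier results of these data known, the counts do not test them as a set. The median log2 difference over the 8 was 0.02 for beta minus delta, 0.07 for transdifferentiated minus beta and -0.20 for transdifferentiated minus delta, beside the medians of all genes given above.

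Other genes of the pathway were taken from a list of 126, of which 124 were in the table and 96 passed the filter. This list, too, was chosen with earlier results of these data known. Between beta and delta cells 20 were higher and 42 lower in beta cells (64.6% called, against 57.9% of all genes, 11.7% higher and 46.3% lower), with a median of -0.25 against -0.36. After scaling 38 were higher and 24 lower of 95 (65.3% called, against 58.3%, 30.6% higher and 27.7% lower), and the median was 0.20 against 0.04. The roles given here, of 12, were chosen after their values were seen and without a test. All 5 tested plasma membrane pumps and exchangers were lower in beta cells (3 after scaling). ER lumenal calcium-binding proteins had 8 lower and 1 higher of 12 (5 and 1 after scaling), and SERCA regulators 6 lower and 1 higher of 11 (4 and 3 after scaling). Gq and phospholipase C genes had 6 lower and 2 higher of 9 (3 and 3 after scaling). Not every role leaned this way. ER leak genes had 2 higher and 0 lower of 5 (5 and 0 after scaling). Mitochondrial uptake and release genes had 4 higher and 3 lower of 12 (6 and 2 after scaling). Other store-operated entry genes had 2 higher and 3 lower of 8 (5 higher and 1 lower of 7 after scaling). The largest changes were as follows. Fkbp1b, a prolyl isomerase that binds ryanodine receptors, was at 102 and 105 RPKM in beta, 40.8 and 52.1 RPKM in transdifferentiated and 12.3 and 11.4 RPKM in delta libraries (beta minus delta 3.03, SE 0.14, limma adjusted p = 1.54e-05). Itpkb, a kinase that removes IP3 (2.16), Jph3, a junctophilin that holds the ER to the plasma membrane (1.93), and Bok, a Bcl-2 family protein that binds IP3 receptors (1.31), were higher in beta cells too. Bok was scarce, at 2.82 and 1.43 RPKM in the male and female beta libraries and 0.224 and 0.243 RPKM in delta libraries. It passed the filter through the groups where it was higher. Rcn3, a calcium-binding reticulocalbin of the ER lumen, was at 0.287 and 0.269 RPKM in beta, 7.96 and 7.01 RPKM in transdifferentiated and 26.6 and 26.3 RPKM in delta libraries (-4.42, SE 0.11, adjusted p = 2.53e-06). Like Bok, Rcn3 passed the filter only through the groups where it was higher, being under 1 RPKM in both beta libraries. Asph, whose gene also encodes junctin and junctate (-2.62), the phospholipase Plcb4 (-2.31) and the plasma membrane pump Atp2b4 (-1.85) were lower in beta cells.

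**Figure D4:**
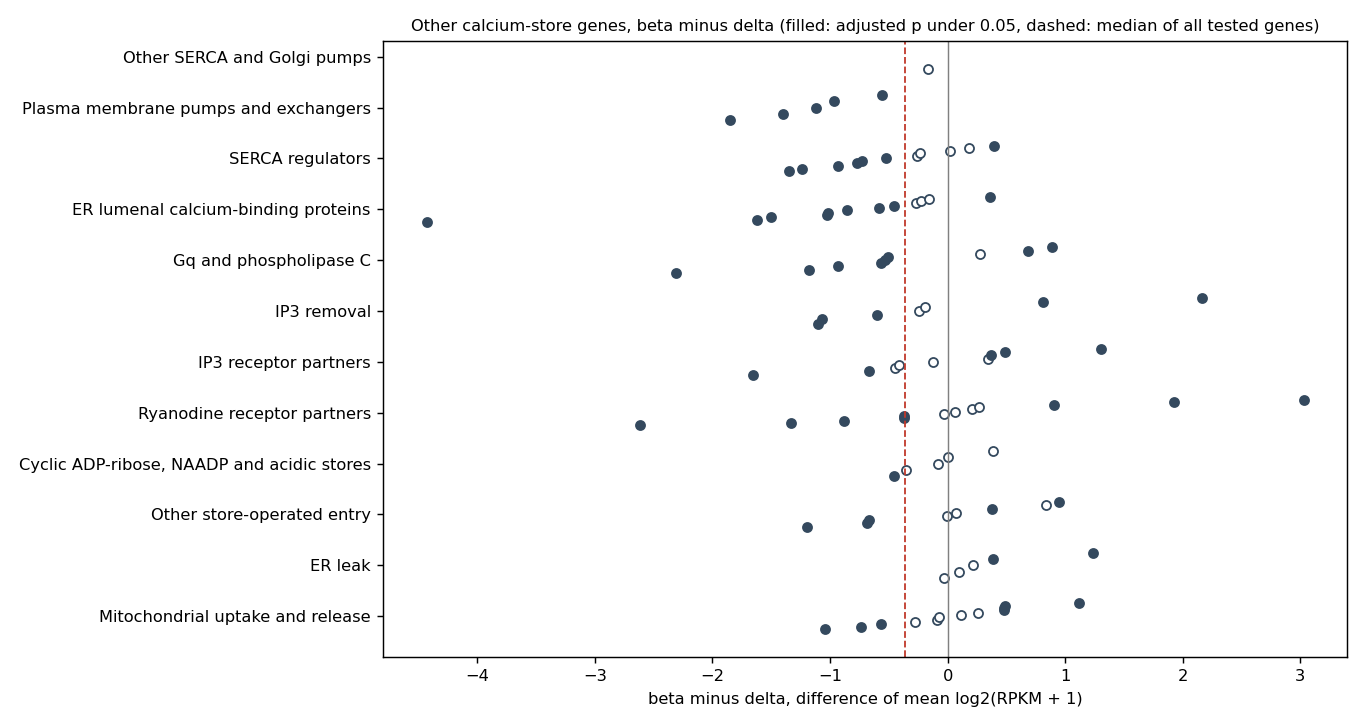
Beta minus delta difference of mean log2(RPKM + 1) for the 96 tested genes of the pathway list outside the members, by role; each point is a gene, filled where the adjusted p is under 0.05. The dashed line is the median of all tested genes (-0.36), and Fkbp1b (3.03) and Rcn3 (-4.42) mark the ends.

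In transdifferentiated cells, against beta cells, 34 list genes were higher and 14 lower of 96 (50% called, against 51% of all genes, 42.5% higher and 8.46% lower), and after scaling 19 higher and 36 lower of 95 (57.9% called, against 55.4%, 25.1% higher and 30.3% lower). Rcn3 (2.73), Plcb4 (1.70), Asph (1.64) and Tmx3, a thioredoxin-related ER membrane protein (1.25), were higher. Fkbp1b (-1.15), Jph3 (-0.98), S100a1, a calcium-binding protein that can act on SERCA and ryanodine receptors (-0.86), and Itpkb (-0.86) were lower. Against delta cells 7 were higher and 14 lower of 96 (21.9% called, against 12.7% of all genes, 5.53% higher and 7.2% lower). After scaling 7 were higher and 13 lower of 95 (21.1% called, against 12.4%, 5.68% higher and 6.67% lower). Fkbp1b (1.88), Itpkb (1.31), Ghitm, a mitochondrial inner membrane protein (0.96), and Jph3 (0.95) were higher, and Rcn3 (-1.70), Asph (-0.97), the sodium-calcium exchanger Slc8a2 (-0.95) and Bcl2, which binds IP3 receptors (-0.84), were lower. Itpkb lost its call against beta cells without beta replicate 2 or transdifferentiated replicate 1 (adjusted p = 0.055 and 0.11). Against delta cells the calls of Itpkb, Jph3, Ghitm and Slc8a2 were lost without at least 1 of transdifferentiated replicate 2, delta replicate 1 and delta replicate 2 (adjusted p between 0.052 and 0.079).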

How the data were processed

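Polyadenylated RNA of 6 libraries was analysed from 1 deposited table of RPKM values that the authors made. STAR 2.5, featureCounts, edgeR 3.14.0 and the build GRCm38.p4 are named, per the submitters' processing notes, without settings. How strand was counted and whether denominators were corrected for composition are not given in the sources used here. Libraries were made with the TruSeq RNA version 2 kit, per the labels' protocols. Of 46959 symbols, 27 turned into dates were left out. Denominators were found as the number of M reads that makes low values whole with GENCODE M21 exon lengths. With a tolerance of 0.01 read, 62.6% to 77.4% of values under 50 reads were whole in a library. Coordinates are from GENCODE M21 (GRCm38).

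The 13022 genes that reached 1 RPKM in 2 or more libraries were fitted as log2(RPKM + 1) in 1 model over the 3 groups with limma 3.58.1 in R 4.3.3 (trend, 2-sided, Benjamini-Hochberg over all tested genes, adjusted p under 0.05). This scale understates changes of low genes. No count model was run, since RPKM are not counts. P-values rest on 1 spread per gene, taken between the 2 pools of a group and pooled over all 3 groups. The fit moves this spread toward a trend over all tested genes, so a p-value does not measure the spread of the compared groups alone. The fit was tested on simulated data with normal noise and few genes changed in 1 group. That setting is unlike these data, so the test does not bear on the calls given here. The pool pairs the libraries, because all 3 populations were sorted from shared islets, per the series text. Deviations from the group means correlated at 0.47 (beta and transdifferentiated), 0.24 (beta and delta) and 0.36 (transdifferentiated and delta). In 1 place the series text gives alpha cells as the origin of the transdifferentiated cells. Delta cells, given by the labels, were taken here. The members and gene lists were chosen with earlier results of these data known. From the pathway list the text names, per comparison, the 4 higher and 4 lower genes of largest change past the threshold with groups that do not overlap, beside all members, their family genes and hormone markers.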

Additional observations from a re-analysis of the deposited data

How the results depend on the processing

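Directions and calls of the members were recomputed with median-of-ratios scaling, a pseudocount of 0.1 RPKM, no filter on low values, the pool as a block, and each library left out in turn. The fit with the pool as a replicate block changed no call of a member: 6, 6 and 4 were called for beta against delta, transdifferentiated against beta and transdifferentiated against delta, as without it, and over all genes 7890, 7022 and 1925 were called in place of 7546, 6642 and 1657. Leaving out 1 library gave 2 to 6 members called for transdifferentiated against beta (4120 to 7047 genes in all), 0 to 4 for transdifferentiated against delta (502 to 2075 genes) and 6 to 7 for beta against delta (4893 to 7769 genes). With no filter 0 members were called by limma for transdifferentiated against delta (4 at an unadjusted p under 0.05), and 1 when a pseudocount of 0.1 RPKM was added, with 846 genes in all. The unfiltered fit holds 26144 genes, and the cause of the lost calls was not tested. After scaling the higher and lower calls over all genes were 3930 and 3561 for beta against delta in place of 1521 and 6025, and 3230 and 3891 for transdifferentiated against beta in place of 5540 and 1102.

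Among members and Orai genes, signs changed for Itpr2, Stim1 and Orai2. For transdifferentiated minus beta, scaling gave -0.20 for Itpr2, -0.41 for Stim1 and -0.31 for Orai2. For beta minus delta it gave 0.22 for Stim1 and 0.36 for Orai2. With 1 library left out, Itpr2 ranged from -0.065 to 0.25, Stim1 from -0.14 to 0.26 and Orai2 from -0.062 to 0.16 for transdifferentiated minus beta, and Orai2 from -0.011 to 0.097 for transdifferentiated minus delta and from -0.11 to 0.10 for beta minus delta. Adding Ryr1 to the ryanodine receptor sum lowered the Ryr3 share in beta cells from 100% to 80.5%. Ryr2, Ryr1 and Atp2a1 rest on few reads in every library.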
